A study of Homo sapiens with 3 samples.

Results

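The 7 genes described here hold the iron-responsive circuit of the cell: FTH1 and FTL, the heavy and light chains of ferritin, TFRC, the transferrin receptor, SLC40A1 and SLC11A2, an iron exporter and an iron importer, and ACO1 and IREB2, the iron regulatory proteins. They were chosen by function, as genes whose mRNAs carry iron response elements or whose proteins read them, and they are 7 of 20037 coding genes on chromosomes 1 to 22, X and Y. Their peaks were those with a centre in the gene's NCBI RefSeq span (GRCh38.p14, the coordinates of hg38), 17 of the 21031 peaks in the list. The data are an eCLIP experiment, in which UV light fixes RNA to the proteins it touches and the RNA that comes down with 1 of them is sequenced. LS174T cells, a line from a human colon adenocarcinoma, received an HA-tagged mouse Pxr (pregnane X receptor, a nuclear receptor that senses drugs and bile acids) by transfection 24 h before irradiation. The groups were 2 immunoprecipitate replicates and 1 input library, all from transfected cells, and the data used here are 1 list of peaks for the immunoprecipitate. The sources used here do not say which replicates entered it or which antibody was used, so the values below carry no replicate error and none is set against the input.

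An iron response element is a short hairpin in an mRNA with a loop of the form CAGUGN. When iron is scarce, the proteins encoded by ACO1 and IREB2 bind it. Bound near the start of the ferritin mRNAs or of the SLC40A1 mRNA the element blocks translation, and bound near the end of the TFRC mRNA, or of some forms of the SLC11A2 mRNA, it protects the message or favours its use, so that storage and export fall while uptake rises.

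The hairpin of FTL could be read directly. RefSeq windows of 300 bases (GRCh38.p14, 250 before to 50 after a start site) were given for 15843 coding genes, 6 of the 7 genes among them. They were searched on both strands for CAGTGN preceded by 5 letters that can pair with the 5 letters after it (G-T pairs allowed) and by a C before those. FTL held a match whose first letter, that C, lies 32 bases after its start. The 24 bases around it, at chr19:48965335-48965358 on the plus strand, are shown here with the loop in capitals beside those of ALAS2, the erythroid enzyme of heme synthesis whose mRNA is known to carry the element (chrX:55030946-55030969, minus strand).
FTL: ctcttgcttcaaCAGTGTttggac
ALAS2: ttcgttcgtcctCAGTGCagggca
Of the genes with a window, 31 held such a hairpin on the gene's strand (0.196%) and 26 on the other strand (0.164%), and in 7 genes (0.0442%) it lay after the start. The letters CAGTG alone stood on the gene's strand in 36.6% and on the other strand in 34.6%. The windows of SLC40A1, TFRC, ACO1, SLC11A2 and IREB2 held no such hairpin on either strand. These windows end 50 bases after a start, so the elements known in the mRNAs of SLC40A1, TFRC and SLC11A2 may lie outside them, and no sequence of theirs was read. Of the 7 coding genes with a hairpin after the start, 3 held a peak, a share near the 41.6% of all coding genes. In 2 of them the hairpin lay inside a peak. FTL had 4 peaks, and ALAS2 had none. The FTL hairpin lay in the first of its peaks. That peak starts 6 bases after the start of the gene and runs past the end of the window. Almost any hairpin found after the FTL start would therefore lie in it.

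Of the 7 genes, 6 held a peak and SLC40A1 did not (85.7%, Wilson 95% interval 48.7 to 97.4%), against 41.6% of all coding genes. Depth at a summit is given as the number of reads covering it, recovered from the deposited fold and −log10 p, with an exact Poisson interval at 95% that covers counting error only, since PCR copies are not independent molecules. It is the highest count over the peaks of a gene, and a longer gene has more positions from which to take it. The deepest summits were 972 reads in FTH1 (912 to 1035), 282 in FTL (250 to 317), 161 in SLC11A2 (137 to 188), 42 in TFRC (30.3 to 56.8), 17 in ACO1 (9.90 to 27.2) and 15 in IREB2 (8.40 to 24.7). The ferritin chains stood at the top and the regulatory proteins at the bottom. Each neighbour in this order was separated by its interval except ACO1 and IREB2, whose intervals overlap. The intervals do not allow for the choice of the deepest peak. By its peak of highest fold TFRC has 16 reads, beside 17 in ACO1. The median of the 6 deepest summits was 101.5 reads, beside 22 reads over the 8329 coding genes with a peak. Of the 17 peaks, 16 lay on the strand of their gene. The exception was the only ACO1 peak. The ACO1 depth, and its part in the count of 6 genes and in the median, thus come from the opposite strand. RNA abundance and binding per RNA molecule cannot be told apart in this list.

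**Figure D1:**
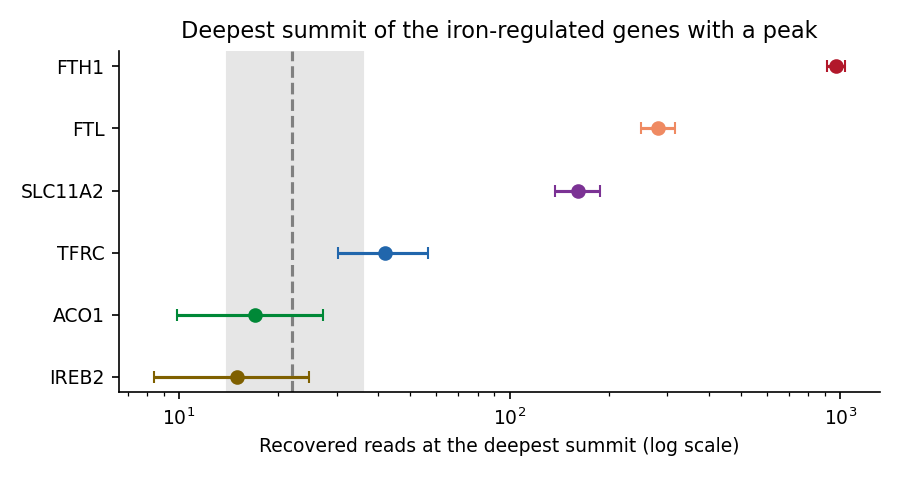
Recovered reads at the deepest summit (horizontal axis, log scale) of the 6 genes with a peak, with exact Poisson 95% intervals as bars. The dashed line is the median of 22 reads over all coding genes with a peak and the grey band their quartiles, 14 to 36 reads. FTH1 with 972 reads and FTL with 282 lie far above the band, and ACO1 with 17 and IREB2 with 15 lie inside it. The ACO1 peak is on the strand opposite to the gene.

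FTH1, which encodes the ferritin chain that oxidises iron for storage, held its reads mainly at its upstream end. The gene lies at chr11:61964285-61967634 and is 3350 bases long. Its strand was not in the table, and it is known as a minus-strand gene, so the high coordinate is the upstream end. All 3 of its peaks were on the minus strand. The upstream peak, at chr11:61967237-61967623, reached a fold of 28.1, where the fold is the authors' ratio of reads at the summit to the average over 10 kb of the same strand, 1 added to each. It held 972 of the 1681 minus-strand reads in the surrounding 10 kb (57.8%, Wilson interval 55.4 to 60.2%). It began 11 bases from the upstream end of the gene, and its summit lay 203 bases from that end. The peaks near the downstream end, at chr11:61964898-61965101 and chr11:61964551-61964826, held 192 reads (166 to 221) at a fold of 5.57 and 223 reads (195 to 254) at a fold of 6.47. Their intervals overlap, and both lie far below the upstream summit. Positions in FTH1, as in FTL below, are along the genomic span, and exons were not used.

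The count of the surrounding 10 kb was 1681 reads around each of the 3 FTH1 summits, although those summits lie up to 2.72 kb apart. The summits were at least 215 bases apart, more than the 200 bases taken here as the length of an extended read. On that reading no read was counted in more than 1 summit. Together the 3 summits held 1387 reads, 82.5% of the window. The upstream peak centre also lay in LOC399900, a lncRNA gene, and the other centres lay in BEST1. The strands of LOC399900 and BEST1 were not used to assign these peaks. With only peaks in no other gene counted, FTH1 therefore has none. Among coding genes with a peak, FTH1 ranked 10 of 8329 by its deepest summit, with ACTB, encoding beta-actin, next above at 986 reads and EEF2, a translation elongation factor gene, next below at 730.

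FTL, which encodes the ferritin chain that aids formation of the iron core, was covered along most of its length. The gene lies at chr19:48965309-48966879 on the plus strand and is 1571 bases long, and its 4 peaks, all on the plus strand, covered 1076 bases of it (68.5%). No other gene lay at their centres. By peaks per kb it ranked 8 of 8329 coding genes with a peak. Of the 743 coding genes under 5 kb that held a peak, 4.17% had 4 or more.

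The FTL summits were deepest at the ends of the gene. The first peak, at chr19:48965315-48965695, started 6 bases after the start of the gene and held 245 reads (215 to 278) at a fold of 12.9. Its summit counts reads that start between 48965309 and 48965508, a stretch that holds the hairpin shown above, which ends 150 bases before the summit. The peak at chr19:48965781-48966022 held 144 reads (121 to 170) at a fold of 7.72, and that at chr19:48966301-48966503 held 66 reads (51.0 to 84.0) at a fold of 3.78. The last, at chr19:48966630-48966943, held 282 reads at a fold of 16.2, with its summit 70 bases from the downstream end. The first and last summits have overlapping intervals, and both lie above the inner 2. The 4 summits, at least 331 bases apart, together held 737 reads, which is 81.4 to 89.6% of the 823 to 905 reads in the 10 kb around them. FTL ranked 57 of 8329 by its deepest summit, between the keratin gene KRT19 at 288 reads and the translation factor gene EIF5A at 275.

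**Figure D2:**
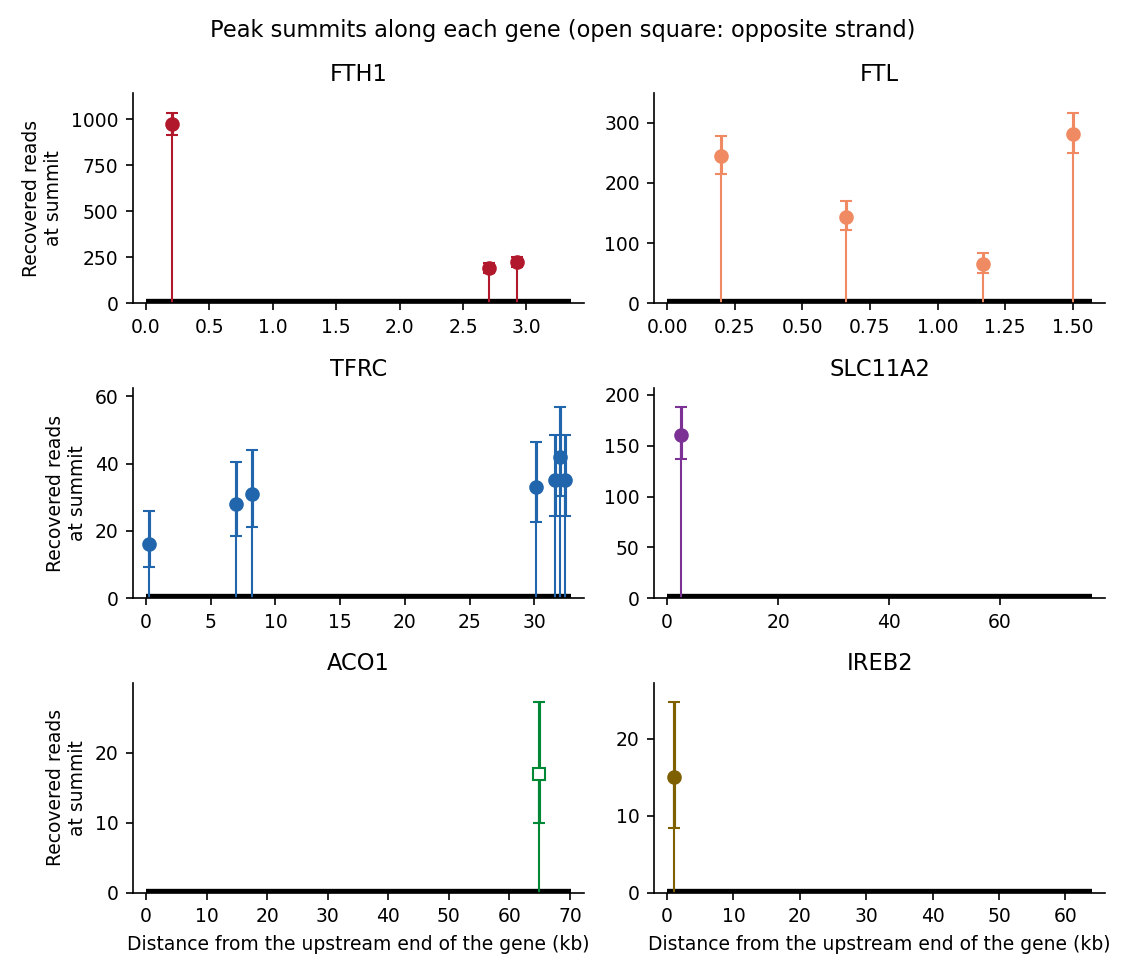
Recovered reads at each peak summit (vertical axis) against its distance from the upstream end of the gene in kb (horizontal axis), for the 6 genes with a peak. Bars are exact Poisson 95% intervals, the black line is the gene span, and the open square marks a peak on the opposite strand. FTH1 has 972 reads near its start, FTL has its highest summits near both ends, and 4 of the 7 TFRC summits gather near the downstream end.

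TFRC, the receptor through which cells take up iron-loaded transferrin, held the most peaks and had a different layout. The gene lies at chr3:196049284-196082090 on the minus strand and spans 32807 bases, and all 7 peaks were on its strand. Summits near the downstream end lay 451, 795, 1232 and 2649 bases from it and held 35 reads (24.4 to 48.7), 42 reads, 35 reads and 33 reads (22.7 to 46.3). Their folds were 4.36, 5.17, 4.06 and 3.69, and the widest peak, at chr3:196051301-196052107, spanned 807 bases. A pair of peaks further upstream, with summits 8163 and 6926 bases from the upstream end, held 31 reads (21.1 to 44.0) and 28 reads (18.6 to 40.5) at folds of 6.32 and 6.30. The peak nearest the start, with its summit 209 bases from it, held 16 reads (9.15 to 26.0) at a fold of 6.49.

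The downstream peaks of TFRC had the highest read counts and the lowest folds of the gene, although among these 4 the fold was higher where reads were more. The fold is relative to the 10 kb around a summit. That window held 363 to 411 reads at the downstream peaks, 203 and 180 at the inner ones and 81 at the start. The interval of the deepest downstream summit lies above that of the summit at the start and overlaps those of the inner ones. The deepest TFRC summit lay within 1000 bases of the downstream end. Among all coding genes of 20 kb or more whose deepest summit lay on their own strand, it did so in 9.23%, and in 43.0% it lay within 1000 bases of the upstream end. The part of the mRNA in which the TFRC elements are known to lie is near the downstream end, but neither exons nor its sequence were used here. TFRC shared its count of 42 reads with 77 other coding genes. Next to it in the order, at the same 42 reads, stood NLRC5 and the splicing factor gene SRSF7.

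SLC11A2, the importer that carries ferrous iron into the cytosol, had 1 peak, which was narrow and deep. The gene lies at chr12:50952263-51028886 on the minus strand, over 76624 bases. The peak, at chr12:51026365-51026566 on the same strand, was 202 bases wide and had a fold of 31.5. Under its summit lay 161 of the 207 reads of the surrounding 10 kb (77.8%, Wilson interval 71.6 to 82.9%). The narrowest peaks of the list are 200 bases wide, taken here as the length of an extended read. A peak 2 bases wider could thus arise from reads that start at nearly 1 position. FTL, FTH1, IREB2 and TFRC also held peaks 203 to 207 bases wide. Of the 816 peaks with over 100 reads, 4.41% were 202 bases wide or less, a limit set after this peak was seen, and of all peaks 19.2%. Whether the reads are PCR copies of few molecules was not tested. Without peaks up to that limit SLC11A2 has none.

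The SLC11A2 peak spans an annotated start of the gene, at 51026384. Of the other annotated starts, those at 51028242 and 51028886 lie upstream of it and that at 51009215 downstream. The 182 bases of the peak before that start, at chr12:51026385-51026566 on the minus strand (RefSeq, GRCh38.p14), are given because they make up most of the gene's only peak. Capitals mark its first 3 bases, where reads extended to 200 bases would start if they alone filled the peak, while the reads counted at the summit may start anywhere from 51026369 to 51026568.
SLC11A2: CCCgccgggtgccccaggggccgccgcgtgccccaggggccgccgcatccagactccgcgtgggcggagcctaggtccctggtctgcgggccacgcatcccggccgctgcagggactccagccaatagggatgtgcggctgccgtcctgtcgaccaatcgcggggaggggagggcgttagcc
G and C made up 75.3% of it, beside a median of 62% over the 250 bases before the start of coding genes. No peak lay near the downstream end, where some forms of the mRNA are known to carry the element. In order of depth SLC11A2 ranked 167 of 8329, next to the ribosomal protein gene RPL28 at 162 reads and LARP1, for an RNA-binding protein that regulates translation, at 161.

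**Figure D3:**
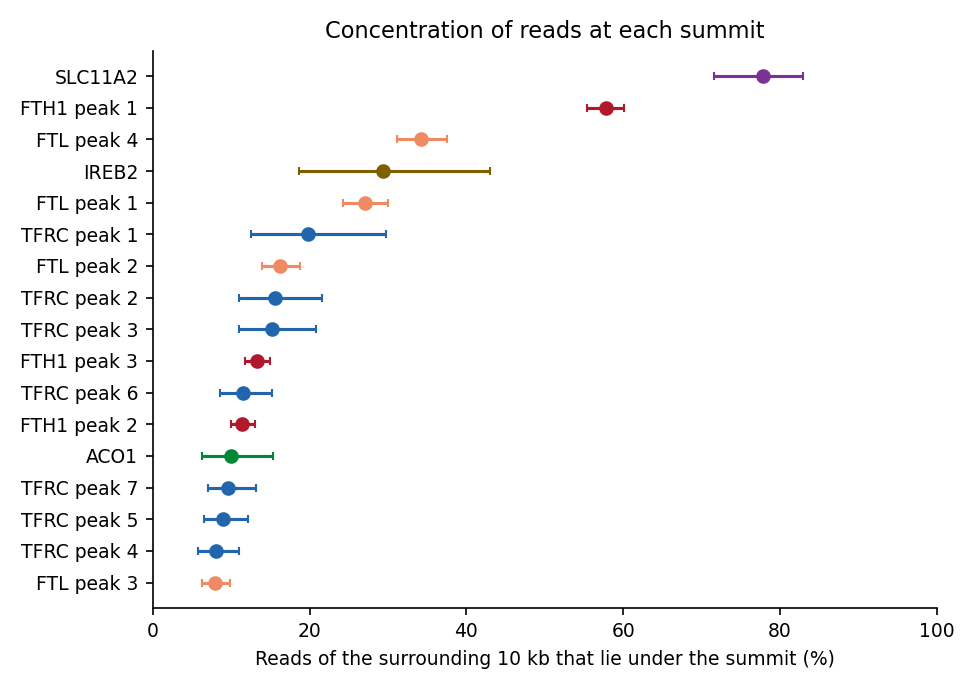
Share of the reads in the surrounding 10 kb that lie under each of the 17 summits (horizontal axis, percent), with Wilson 95% intervals as bars and peaks of a gene numbered from its upstream end. SLC11A2 at 77.8% and the upstream FTH1 peak at 57.8% stand apart, and the downstream TFRC peaks, numbered 4 to 7, lie between 8.03% and 11.5%.

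The genes of both regulatory proteins had 1 shallow peak each. ACO1 encodes a protein that is a cytosolic aconitase when it holds an iron-sulfur cluster and binds RNA when it does not. Its gene lies at chr9:32384643-32454769 on the plus strand, and its only peak, at chr9:32449353-32449571, was on the minus strand, with 17 reads at a fold of 4.07. No other gene of the table lay there. Of the peaks in a single coding gene of known strand, 1.60% were on the opposite strand, and ACO1 had no peak on its own strand. IREB2 encodes the regulatory protein that is degraded when iron is plentiful. Its gene lies at chr15:78437431-78501453 on the plus strand, and its peak, at chr15:78438293-78438498 on the same strand, held 15 of 51 reads in its 10 kb (29.4%, Wilson interval 18.7 to 43.0%) at a fold of 7.92. That peak begins 77 bases after 1 annotated start of the gene and spans another, at 78438421. Both depths are common, shared by 262 other coding genes at 17 reads and 289 at 15. Next in the order stood NOL4L and LRRC37A2 at 17 reads beside ACO1, and THSD4 and SPATA9 at 15 reads beside IREB2.

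SLC40A1, which encodes ferroportin, the only known exporter of iron from cells, held no peak in the 20197 bases at chr2:189560590-189580786. The nearest peak was 118849 bases away, in WDR75, with 6 reads. Of 4204 coding genes within 1.5 times its length, 43.5% held a peak. The same share was 29.2% around the length of FTH1, 19.7% around FTL, 48.1% around TFRC, 50.5% around SLC11A2, 50.4% around ACO1 and 50.0% around IREB2. A gene may be missing from the list because its RNA is rare, so its absence here says nothing about binding to SLC40A1 RNA.

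**Figure D4:**
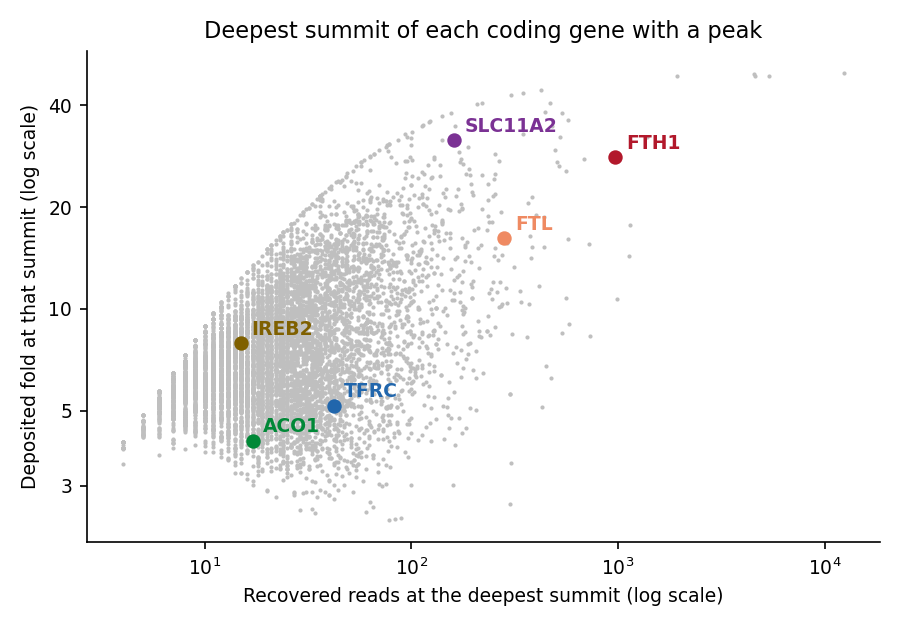
Deposited fold (vertical axis, log scale) against recovered reads (horizontal axis, log scale) at the deepest summit of each of the 8329 coding genes with a peak, in grey, with the 6 iron-regulated genes in colour. FTH1, FTL and SLC11A2 combine many reads with folds of 28.1, 16.2 and 31.5, while TFRC has 42 reads at a fold of 5.17.

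Depth and fold placed FTH1, FTL and SLC11A2 apart from most coding genes. A summit of over 200 reads was found in FTH1 and FTL, and in 104 of all 20037 coding genes (0.519%), of which 8329 held a peak. A peak counts for every gene at its centre, so the FTH1 peak of 223 reads also places BEST1 among the 104. A peak with a fold of 20 or more was found in FTH1 and SLC11A2, and in 196 of all coding genes (0.978%). Both limits fall between values of the 7 genes. Over the 17 peaks the median fold was 6.32 and the median depth 42 reads, beside 5.98 and 21 reads over the 20919 peaks on chromosomes 1 to 22, X and Y.

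Few copies of the ferritin genes held a peak, and the deepest were copies of FTL. Ferritin pseudogenes resemble the mRNA closely, so aligned reads of FTH1 and FTL could be split between gene and copy. Of 47 genes named FTH1P or FTLP with a number, 3 held a peak (6.38%, Wilson interval 2.19 to 17.2%), against 5.07% of all pseudogenes, a share close to that background. FTLP3, on chromosome 20, reached 85 reads (67.9 to 105) at a fold of 26.7, out of 111 reads in the surrounding 10 kb. FTLP2, on chromosome X, also reached 85 reads, at a fold of 31.9, and no other read lay in the 10 kb around it. FTH1P2 had 6 reads in a peak 200 bases wide, inside the coding gene RHOU. Each of the 3 peaks was on the plus strand. The FTLP2 and FTLP3 depths are lower than the first and last FTL summits beyond their intervals.

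Among other iron genes, peaks were frequent in the lists for iron sensing and iron-sulfur cluster assembly, and absent from the hepcidin list. The lists were not matched to other genes by length or RNA abundance. Of 78 other iron genes in 6 lists, 46 held a peak (59.0%, Wilson interval 47.9 to 69.2%), against 41.6% of all coding genes. None had a deeper summit than FTL, and PCBP1 alone reached the 161 reads of SLC11A2.

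All 7 genes of iron sensing and ferritin turnover held a peak. PCBP1, for an RNA-binding protein that also delivers iron to ferritin, had 161 reads at a fold of 11.1 in a peak 1410 bases wide, and its relative PCBP2 had 9 peaks and a deepest summit of 121 reads. NCOA4, the receptor that takes ferritin to lysosomes, had 25 reads, and FBXL5, the iron-sensing subunit of the ligase that marks IREB2 protein for degradation, had 9. Peaks were also held by 19 of the 25 genes of iron-sulfur cluster assembly (76.0%, Wilson interval 56.6 to 88.5%). Deepest in that list were HSPA9, a mitochondrial chaperone gene, with 109 reads and GLRX5, for a glutaredoxin that carries clusters, with 54 reads at a fold of 18.3. ISCU, for the scaffold on which clusters are built, had 35 reads.

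Of the 17 heme genes 10 held a peak (58.8%, 36.0 to 78.4%), led by CPOX, an enzyme of heme synthesis, with 29 reads and FLVCR1 with 23. In PPOX and FLVCR2 the deepest peak was on the opposite strand and lay in a further gene as well. Among genes for uptake, transport and reduction of iron, 8 of 17 held a peak (47.1%, 26.2 to 69.0%), led by the metal importer SLC39A14 with 38 reads and the mitochondrial importer SLC25A37 with 31. No peak lay in TF, the gene for transferrin. Of 5 other mRNAs reported to carry iron response elements 2 had a peak (40%, 11.8 to 76.9%), APP with 17 peaks and 124 reads at a fold of 24.4 and CDC42BPA with 59 reads at a fold of 13.9. None of the 7 hepcidin pathway genes had one (0%, Wilson interval up to 35.4%). The median deepest summit over all coding genes with a peak was 22 reads. Within the lists it was 25 for iron sensing, 20 for iron-sulfur assembly, 14.5 for heme and 28 for transport. For the 2 other mRNAs reported to carry the elements, APP and CDC42BPA, it was 91.5.

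**Figure D5:**
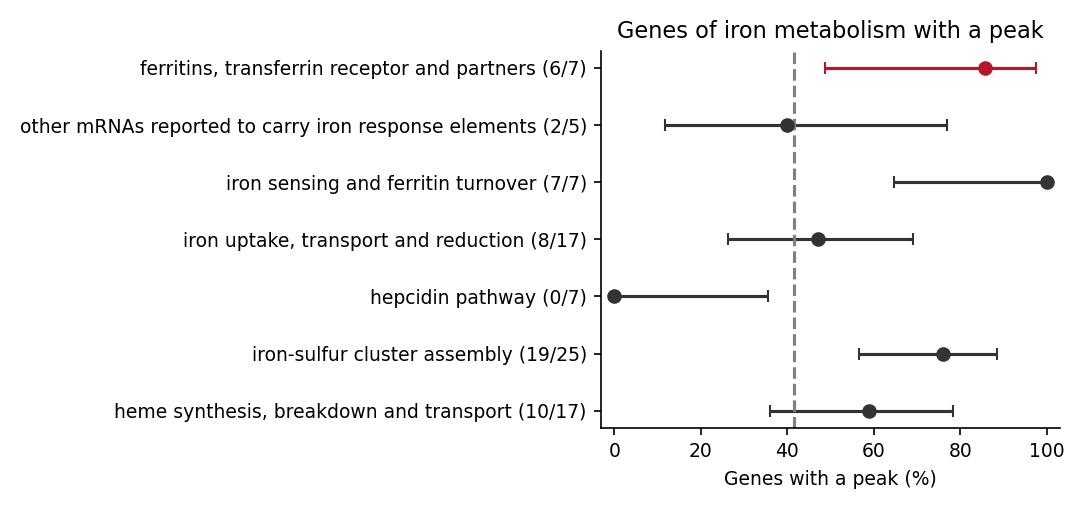
Share of genes with a peak (horizontal axis, percent) in the 7 genes, in red at the top, and in 6 lists of other iron genes, in black, with Wilson 95% intervals as bars and counts in brackets. The dashed line is the 41.6% of all coding genes. Iron sensing with 7 of 7 and iron-sulfur assembly with 19 of 25 lie to its right, as do the 7 genes, and the hepcidin pathway with 0 of 7 lies to its left. The genes and lists were chosen with earlier results of these data known, so the intervals are no test against the line.

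The cell type was checked against markers in the same way. Of 14 colon epithelial markers 13 held a peak (92.9%), beside 41.6% of all coding genes. Their median deepest summit was 78 reads. A peak was held by 1 of 7 fibroblast and endothelial markers, and by none of 7 hepatocyte and 8 erythroid and blood markers. That 1 was COL1A2, with 10 reads in a minus-strand peak 200 bases wide, and its gene strand was not in the table. The lack of a peak in ALAS2, TF and the hepcidin genes stands beside these values. Its relation to cell type was not tested.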

How the data were processed

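The authors deposited 1 list of peaks. Per the submitters' processing notes, cutadapt, BWA and MACS2 were used with build hg38, and versions and settings are not given in the sources used here. Its columns are the authors' values: the deposited −log10 q and −log10 p, the deposited fold (a ratio of summit to background, after adding 1 read to either), a deposited score equal to the integer part of 10 times −log10 q, and the summit position. Peaks were called apart on each strand, per the deposited peak names.

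From fold and −log10 p the whole number of reads at each summit and its background were recovered under the caller's Poisson model, within 0.0001 plus a 1e-05 part of the −log10 p, in 21028 of 21031 peaks. Multiplied by 50 the background was whole within 0.05, and is read as the reads in 10 kb, in 20367 peaks, among them all 17 of the 7 genes and those of FTLP2 and FTLP3. Peak centres were assigned to RefSeq gene spans, and gene strand came from the RefSeq promoter table where it lists the gene (15843 coding genes). FTH1 was oriented from general knowledge. Python 3.11.15, scipy 1.17.1 and pandas 2.3.3 were used.

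No test was run, since 1 list has no replicates. The 7 genes and the lists were chosen with earlier results of these data known. Named were all 7 genes with every peak, the 6 deepest other iron genes and the 2 deepest per list, the ferritin pseudogenes with a peak, and each gene's neighbours in depth. CEP43, CTBP1 and the other genes named beyond these were chosen after their values were seen. 1 gene of the lists is not reported here and was left out of their counts.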

Additional observations from a re-analysis of the deposited data

How the results depend on the processing

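No paired analysis was possible because the 1 list carries no replicate columns, and no replicate could be left out. The count of 6 genes with a peak was also 6 with any overlap of 1 base and with the summit in place of the centre. It was 5 with peaks at or above the median −log10 q or the median fold (without ACO1), beside 25.9% and 30.2% of all coding genes. With peaks in no other gene it was 5 (without FTH1), beside 35.8%. On the gene's strand where the table gives it, it was 4, beside 32.8%. That count is without ACO1, and without FTH1, whose strand is not in the table. Without peaks at most 2 bases wider than 200 bases, an alternative chosen after seeing the data, it was 5 (without SLC11A2), beside 37.3%. At or above the median fold the 7 genes held 10 of their 17 peaks, and at or above the median −log10 q 13. Both limits are medians of the list, which fixes the share of all peaks that reach them. At or above the median −log10 q, 28 of the 78 other iron genes and 5187 of all coding genes (25.9%) kept a peak. The median deepest summit of 101.5 reads was 89 with the peak of highest fold, where TFRC is represented by 16 reads in place of 42, and 161 at or above the median −log10 q, where ACO1 drops out. All other counts lay within 1.5 times their main value. At 15 and 17 reads the IREB2 and ACO1 peaks could not be ordered, and intervals cover counting error only.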

Other observations

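Besides FTL, the hairpin letters stood after the start of 2 coding genes with a peak, both named after their values were seen. In CTBP1, a transcriptional corepressor gene with 6 peaks and a deepest summit of 79 reads, the first letter of the pattern lay 32 bases after a start, as in FTL, and the hairpin was inside a peak. In CEP43, a centrosomal protein gene with 1 peak of 19 reads, it lay outside the peak. Whether either hairpin acts as an iron response element was not tested.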
